A study of Homo sapiens with 96 samples.

Results

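Cholesterol synthesis and its control were followed through 28 genes, of 58434 in the whole table. The members are 19 enzymes of the pathway from acetyl units to cholesterol and its prenyl side branch, 6 genes that control the pathway through sterol regulatory element binding proteins (SREBPs) and 3 targets of the liver X receptors (LXR) that export cholesterol or limit its uptake. The members are given by name, and no threshold on a value enters the rule. All 28 passed the filter on low values in both fits described here.

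The RNA came from the established line H9, made of human embryonic stem cells, and was sequenced as polyadenylated RNA in 96 libraries. The 10 exposed groups were day 10 co-cultures of neurons and astrocytes derived from neural progenitor cells and exposed to fluoxetine, acrylamide, chlorpyrifos, methyl mercury or valproic acid, each at the concentrations named IC5 and IC20/100. IC5 is taken as the 5% inhibitory concentration, and IC20/100 as the 20% inhibitory concentration divided by 100. Fluoxetine, chlorpyrifos and methyl mercury were given in dimethyl sulfoxide (DMSO, 0.25% final), and acrylamide and valproic acid in medium. The control group was the unexposed day 10 co-culture, and the NPC group was the progenitor culture at day 0. Each of the 12 groups had 8 libraries. These were technical replicates of 1 experiment in 1 cell line, so that every p measures only the spread between these libraries and none speaks for other cultures. The labels used here give neither molar concentrations nor how long exposure lasted. Nor do they say whether the controls held DMSO, so that for the compounds in DMSO the compound and its vehicle cannot be told apart in a comparison with control.

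As background, cells make cholesterol from acetyl-CoA through mevalonate, isoprenyl units, squalene and lanosterol. When sterols in the endoplasmic reticulum run low, the escort protein SCAP carries SREBPs to the Golgi for cleavage, and the freed SREBP2 turns on nearly all the enzymes, while INSIG proteins hold SCAP back when sterols are plentiful. Oxysterols activate LXR, which turns on the efflux pumps ABCA1 and ABCG1. Brain cells make their own cholesterol, because lipoproteins of the blood hardly cross the blood-brain barrier.

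The promoters of the members are shown for 6 genes that the results turn on. HMGCS1 encodes HMG-CoA synthase, MVD mevalonate diphosphate decarboxylase, LSS lanosterol synthase, INSIG1 the sterol-sensing brake, SREBF2 the SREBP2 precursor and ABCA1 the main efflux pump. Each sequence runs from 250 bases before to 50 bases after the RefSeq start of the gene, in GRCh38.p14. The windows are chr5:43313363-43313662 on the minus strand for HMGCS1, chr16:88663042-88663341 on the minus strand for MVD, chr21:46228725-46229024 on the minus strand for LSS, chr7:155297628-155297927 on the plus strand for INSIG1, chr22:41832855-41833154 on the plus strand for SREBF2 and chr9:104928106-104928405 on the minus strand for ABCA1. Capitals mark the CCAAT box, bound by NF-Y, a partner of SREBPs, on either strand, and the sterol regulatory element, in the order of the listing.
HMGCS1: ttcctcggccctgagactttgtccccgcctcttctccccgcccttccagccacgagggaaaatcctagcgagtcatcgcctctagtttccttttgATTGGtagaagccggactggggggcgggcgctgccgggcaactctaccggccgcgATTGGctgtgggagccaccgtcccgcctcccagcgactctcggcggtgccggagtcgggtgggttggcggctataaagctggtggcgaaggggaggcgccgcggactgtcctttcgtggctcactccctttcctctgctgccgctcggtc
MVD: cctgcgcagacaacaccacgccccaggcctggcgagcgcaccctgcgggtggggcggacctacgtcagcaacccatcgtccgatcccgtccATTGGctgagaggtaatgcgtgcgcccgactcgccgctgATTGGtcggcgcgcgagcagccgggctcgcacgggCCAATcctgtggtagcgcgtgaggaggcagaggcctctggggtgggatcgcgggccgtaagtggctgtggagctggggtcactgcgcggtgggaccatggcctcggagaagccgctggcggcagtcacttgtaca
LSS: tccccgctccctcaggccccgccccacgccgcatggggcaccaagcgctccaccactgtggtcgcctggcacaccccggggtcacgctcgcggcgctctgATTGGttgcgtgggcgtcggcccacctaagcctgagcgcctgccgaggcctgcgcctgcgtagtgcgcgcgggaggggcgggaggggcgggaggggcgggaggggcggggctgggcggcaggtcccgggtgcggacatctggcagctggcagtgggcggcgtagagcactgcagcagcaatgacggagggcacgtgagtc
INSIG1: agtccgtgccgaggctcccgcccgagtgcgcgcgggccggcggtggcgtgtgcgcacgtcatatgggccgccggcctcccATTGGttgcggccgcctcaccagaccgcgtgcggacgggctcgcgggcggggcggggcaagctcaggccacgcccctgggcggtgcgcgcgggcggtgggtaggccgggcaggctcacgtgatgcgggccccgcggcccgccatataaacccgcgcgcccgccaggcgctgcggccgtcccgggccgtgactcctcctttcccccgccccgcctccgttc
SREBF2: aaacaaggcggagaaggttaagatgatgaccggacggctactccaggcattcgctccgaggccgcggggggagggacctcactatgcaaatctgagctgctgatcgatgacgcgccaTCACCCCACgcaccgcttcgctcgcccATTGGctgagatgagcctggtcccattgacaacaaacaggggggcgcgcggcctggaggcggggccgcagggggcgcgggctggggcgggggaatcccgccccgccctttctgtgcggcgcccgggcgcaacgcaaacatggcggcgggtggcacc
ABCA1: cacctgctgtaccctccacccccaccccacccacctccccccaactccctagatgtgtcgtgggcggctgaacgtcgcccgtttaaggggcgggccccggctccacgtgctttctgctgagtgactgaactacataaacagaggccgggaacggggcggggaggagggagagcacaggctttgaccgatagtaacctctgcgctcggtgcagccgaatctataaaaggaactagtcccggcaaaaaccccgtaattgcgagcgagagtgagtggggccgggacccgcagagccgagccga

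The CCAAT box (CCAAT, on either strand) was found in 16 of the 24 members that had a promoter in the RefSeq table, against 34.6% of all 35116 promoters of the same length and 36.2% of the 13243 promoters of genes tested in the day 10 fit. Among the sequences shown it stands 3 times in MVD, 2 times in HMGCS1 and once each in LSS, INSIG1 and SREBF2, whereas ABCA1 has none. The GC box (GGGCGG, on either strand) was found in 22 of 24 members, against 45% of all promoters and 66.6% of those of tested genes. A canonical sterol regulatory element (TCACNCCAC, on either strand) was found in 1 of the 24 members, against 1.13% of all promoters, and that member was SREBF2, where it begins 133 bases before the start. In the SREBF2 window the element and the CCAAT box do not overlap, whereas 2 of its GC boxes share a base. These matches are of letters only, and sites with other letters were not counted. ACAT2, FDFT1, SQLE and ABCG1 had no entry in the table.

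The values analysed are the authors' normalised read counts, which are gene counts divided by 1 size factor per library, and differences are on the log2(value + 2) scale. Recovered depth was 9.487 to 29.627 M reads a library, with a median of 18.942 M. Members had 13 to 58 reads a library in the case of MYLIP, 67 to 285 for ABCG1 and over 200 for every other member, so that MYLIP carries a large counting error. Within the 8 controls the coefficient of variation of the normalised read count ran from 3.47% for HMGCS1 to 24.3% for SC5D. Methyl mercury IC20/100 replicate 8 stood apart, with a normalised total of 20.952 M against 18.108 to 18.987 M in the other 87 day 10 libraries and with the highest or lowest value of its group by a wide gap for 11 members. Counts that change without it are given beside the results.

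Cell type markers were checked against the labels. Among the neuronal markers, control medians ran from 253.9 normalised reads for RBFOX3 and 370.0 for SYN1 to 17660 for MAP2 and 26340 for DCX. Among the astrocyte markers they were 2888 for SLC1A2, 1872 for SLC1A3 and 134.2 for GJA1, and the other 4 ran from 3.51 for AQP4 to 16.44 for ALDH1L1 and 23.09 for GFAP. The microglial genes AIF1, CSF1R and PTPRC averaged under 10 in every group. NPC were not free of neuronal RNA, with a DCX median of 15940. In bulk RNA, fewer cells of a type and less RNA per cell cannot be told apart. A gene was called higher or lower where limma's p, adjusted by Benjamini-Hochberg across the whole fit, was under 0.05. The fit of the 88 day 10 libraries held 20136 genes and that of controls and NPC 18063.

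Fluoxetine, a serotonin reuptake inhibitor, gave at IC5 the highest median of the 11 day 10 groups for 22 of the 28 members. The share of all genes with their highest median in this group was not counted. Against control, 18 members rose and 1 fell, where 5.47% of all tested genes were called higher and 5.94% lower. The rise covered 16 of the 19 synthesis enzymes, from the start of the pathway to its last reductase, and 2 of the 6 control genes. The median log2 fold change was 0.25 over the members and 0.34 over the enzymes. The exceptions among the enzymes were PMVK (log2 fold change -0.07), SC5D (0.05) and GGPS1 (0.17), which did not pass the test. PMVK phosphorylates mevalonate phosphate, SC5D is a late desaturase, and GGPS1 makes the geranylgeranyl group for protein prenylation and stands on the side branch.

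Among the early enzymes, HMGCS1, which condenses acetyl units to HMG-CoA, had 31780 to 35760 normalised reads (median 34000) in fluoxetine IC5 cultures and 22820 to 25720 (median 24090) in controls. The groups did not overlap, and its log2 fold change was 0.50 ± 0.04 (SE, n = 8 each, adjusted p = 4.63e-16). MVD, which forms the isoprenyl unit, showed the largest rise of all members, with 2093 to 3265 (median 2297) normalised reads in fluoxetine IC5 cultures and 926.7 to 1517 (median 1151) in controls. Here too every exposed library lay above every control, at a log2 fold change of 1.09 ± 0.12 (adjusted p = 2.54e-11), or 2.14-fold. The upper end is replicate 3, which lay far above the other 7 libraries. Controls had the lowest MVD median of the 11 day 10 groups. Fluoxetine IC20/100 cultures had 989.8 to 1913 (median 1588) normalised reads of MVD, so that part of the distance from control was present there too. ACAT2, a cytosolic thiolase that joins acetyl-CoA units, rose by 0.42 ± 0.05, MVK, the mevalonate kinase, by 0.40 ± 0.07, and the isomerase IDI1 by 0.23 ± 0.04 on the log2 scale.

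Past the branch point, LSS, which closes squalene epoxide into lanosterol, had 5471 to 8161 (median 6652) normalised reads in fluoxetine IC5 cultures and 2236 to 5204 (median 4178) in controls. These ranges did not overlap either (log2 fold change 0.79 ± 0.17, adjusted p = 5.77e-04), although LSS is among the members that varied most within groups. DHCR7, the reductase that yields cholesterol, had 1704 to 2392 (median 1993) normalised reads in fluoxetine IC5 cultures and 899.1 to 1317 (median 1070) in controls, a log2 fold change of 0.91 ± 0.09 (adjusted p = 1.3e-13). SQLE, the squalene epoxidase and a slow step of the pathway, rose by 0.34 ± 0.04, and MSMO1, which removes methyl groups from sterol intermediates, by 0.39 ± 0.06. The smallest rise that passed was that of the squalene synthase FDFT1 (0.15 ± 0.04, adjusted p = 0.0138), whose libraries overlapped with the controls. HSD17B7 rose by 0.46 ± 0.11, while its pseudogene HSD17B7P2, to which reads may also be assigned, was at 0.12 ± 0.08 and did not pass. In the direct comparisons given below, HSD17B7 was called higher and so was HSD17B7P2. The pseudogene was higher by 0.38 against fluoxetine IC20/100, 0.63 against chlorpyrifos IC5 and 0.47 against methyl mercury IC5.

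Of the genes that control the pathway, INSIG1, itself a target of SREBPs, had 1927 to 2348 (median 2136) normalised reads in fluoxetine IC5 cultures and 1208 to 1482 (median 1338) in controls, with no overlap (log2 fold change 0.67 ± 0.05, adjusted p = 4.73e-18). STARD4, a sterol carrier between membranes, had 1697 to 2118 (median 1921) in fluoxetine IC5 cultures and 1189 to 1660 (median 1362) in controls (log2 fold change 0.47 ± 0.09, adjusted p = 2.9e-05). The SREBP genes and the escort were not called, with log2 fold changes of 0.06 ± 0.09 for SREBF1, 0.11 ± 0.06 for SREBF2 and 0.03 ± 0.04 for SCAP. INSIG2, the INSIG gene less tied to sterols, was at 0.17 ± 0.09 and was not called.

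The LXR targets did not share the rise. ABCA1 had 1586 to 1808 (median 1729) normalised reads in fluoxetine IC5 cultures and 1775 to 2314 (median 2139) in controls, and it fell by 0.34 on the log2 scale (SE 0.07, adjusted p = 2.13e-04). The groups overlapped at 1 control library, replicate 7 (1775), and the other 7 controls lay above all exposed libraries. ABCG1, a partner in efflux, was at -0.17 ± 0.08 and MYLIP, an E3 ligase that degrades lipoprotein receptors, at -0.03 ± 0.15, and neither passed. Among the 19 calls, 18 had the same direction in all 6 sequencing runs. No call was lost when any 1 control was left out, and under the other settings run FDFT1 was the only call lost (adjusted p = 0.0671 without the run term).

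**Figure D1:**
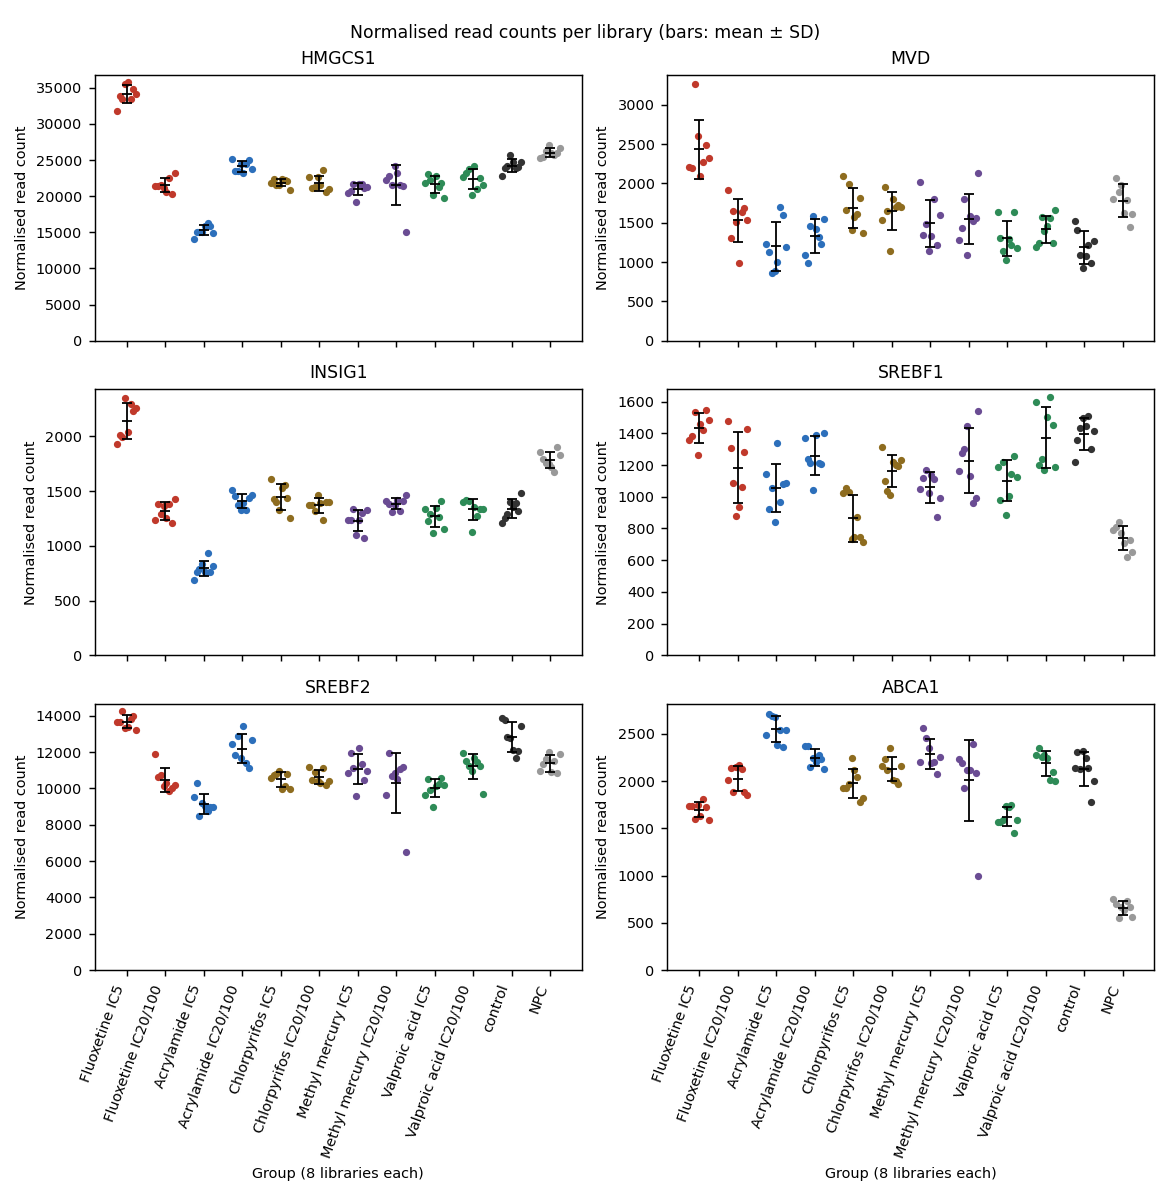
Normalised read counts of HMGCS1, MVD, INSIG1, SREBF1, SREBF2 and ABCA1 (vertical axes, from 0) in each of the 12 groups (horizontal axis); points are the 8 libraries of a group and bars the mean ± SD. Fluoxetine IC5 has the highest HMGCS1, MVD and INSIG1 values, acrylamide IC5 has the lowest HMGCS1 and INSIG1 values of the day 10 groups, and the single low SREBF2 (6514) and ABCA1 (991.6) points belong to methyl mercury IC20/100 replicate 8.

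Other genes of sterol and lipid metabolism were described by list. In the fatty acid branch 3 of 13 genes rose at fluoxetine IC5 and none fell, with a median log2 fold change of 0.21. The largest rise there was that of SCD, the stearoyl-CoA desaturase, with a mean of 33790 ± 1479 normalised reads in fluoxetine IC5 cultures and 24120 ± 994.0 in controls (SD, n = 8 each, log2 fold change 0.49, adjusted p = 1.23e-20). Of the sterol uptake and transport genes 3 of 15 tested rose and none fell, led by NPC2, which carries cholesterol out of lysosomes (log2 fold change 0.52 ± 0.09). In the list of LXR receptors, other LXR targets and oxysterol enzymes 3 of 13 rose, led by the sterol hydroxylase CYP27A1 (0.71), and RXRA (-0.11) was the only 1 that fell. PGRMC1 (0.15) was the only gene called among 11 in SREBP processing and sterol-regulated degradation, and of the 11 genes of the non-sterol isoprenoid branch none was called (median 0.01). Over all 20136 genes tested the median log2 fold change was 0.00, with 5.47% called higher and 5.94% lower.

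The sums of marker lists were compared between these groups. The progenitor list summed to 94650 to 103400 normalised reads in fluoxetine IC5 cultures and 95330 to 102200 in controls, and the neuronal list to 76660 to 82710 in fluoxetine IC5 cultures and 78810 to 85460 in controls. The 7 astrocyte genes summed to 3745 to 4771 in fluoxetine IC5 cultures and 4436 to 5724 in controls. The mesenchymal list summed to 1405 to 2387 in fluoxetine IC5 cultures and 1309 to 1721 in controls. Its gene COL3A1 was higher without overlap (160.7 to 284.0 and 91.5 to 148.8), and it was so at acrylamide IC5 too (175.7 to 252.5). The medians of COL1A1, COL1A2 and LUM were also higher in fluoxetine IC5 cultures. Those of PDGFRB (60.49 and 64.11) and DCN (9.07 and 18.15) were lower. Within the progenitor list, VIM makes up most of the sum, and HES5 was lower without overlap, with 1123 to 1318 in fluoxetine IC5 cultures and 1539 to 1771 in controls. FABP7 was also lower without overlap (2771 to 3124 and 3226 to 3474). The part of these markers in the change of the sterol genes was not tested.

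The 2 fluoxetine concentrations were set against each other without the controls, a comparison in which both sides held DMSO. At IC5, 19 of 28 members were higher than at IC20/100 and 2 were lower, against 2.3% of all genes higher and 1.46% lower. These were 15 enzymes, INSIG1, STARD4, SREBF1 and SREBF2 on the higher side and ABCA1 and ABCG1 on the lower side. HMGCS1 had 31780 to 35760 normalised reads at fluoxetine IC5 and 20310 to 23220 at fluoxetine IC20/100, with no overlap (log2 fold change 0.67 ± 0.04, adjusted p = 1.74e-21). SREBF2, which was not called against control, had 13240 to 14270 at fluoxetine IC5 and 9839 to 11920 at fluoxetine IC20/100 (log2 fold change 0.40 ± 0.06, adjusted p = 9.94e-08). At fluoxetine IC20/100, SREBF2 was below control by a log2 fold change of -0.29 ± 0.06. STARD4 differed by 0.72 ± 0.09 between the concentrations, where it was at 0.47 against control at IC5 and at -0.26 at IC20/100. In fits of the 16 libraries alone the calls of HSD17B7, SREBF1 and ABCG1 were lost (adjusted p = 0.25, 0.0784 and 0.0987).

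Fluoxetine IC5 was next set against the other compounds given in DMSO at their IC5. Against chlorpyrifos IC5, 18 members were higher and 1 lower (3.2% of all genes higher and 3.63% lower), and against methyl mercury IC5, 21 were higher and 2 lower (4.3% higher and 3.99% lower). The lower ones were ABCA1 in both and ABCG1 in the second. DHCR7 had 1704 to 2392 normalised reads at fluoxetine IC5, 1019 to 1414 at chlorpyrifos IC5 and 799.3 to 1332 at methyl mercury IC5, without overlap, at log2 fold changes of 0.70 ± 0.09 and 0.93 ± 0.09. SREBF1 showed the largest difference from chlorpyrifos (0.77 ± 0.09, adjusted p = 2.38e-10) with 1265 to 1545 normalised reads at fluoxetine IC5 and 712.6 to 1054 at chlorpyrifos IC5. The 3 comparisons share the fluoxetine IC5 libraries and are not independent. In the comparison of chlorpyrifos IC5 with methyl mercury IC5, 6 members were higher and 2 lower (5.68% of all genes higher and 5.48% lower). The higher ones there were ACAT2, MVK, FDPS, SQLE, TM7SF2 and INSIG1, by 0.16 to 0.24 on the log2 scale, and the lower ones FDFT1 (-0.16) and SREBF1 (-0.33).

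**Figure D2:**
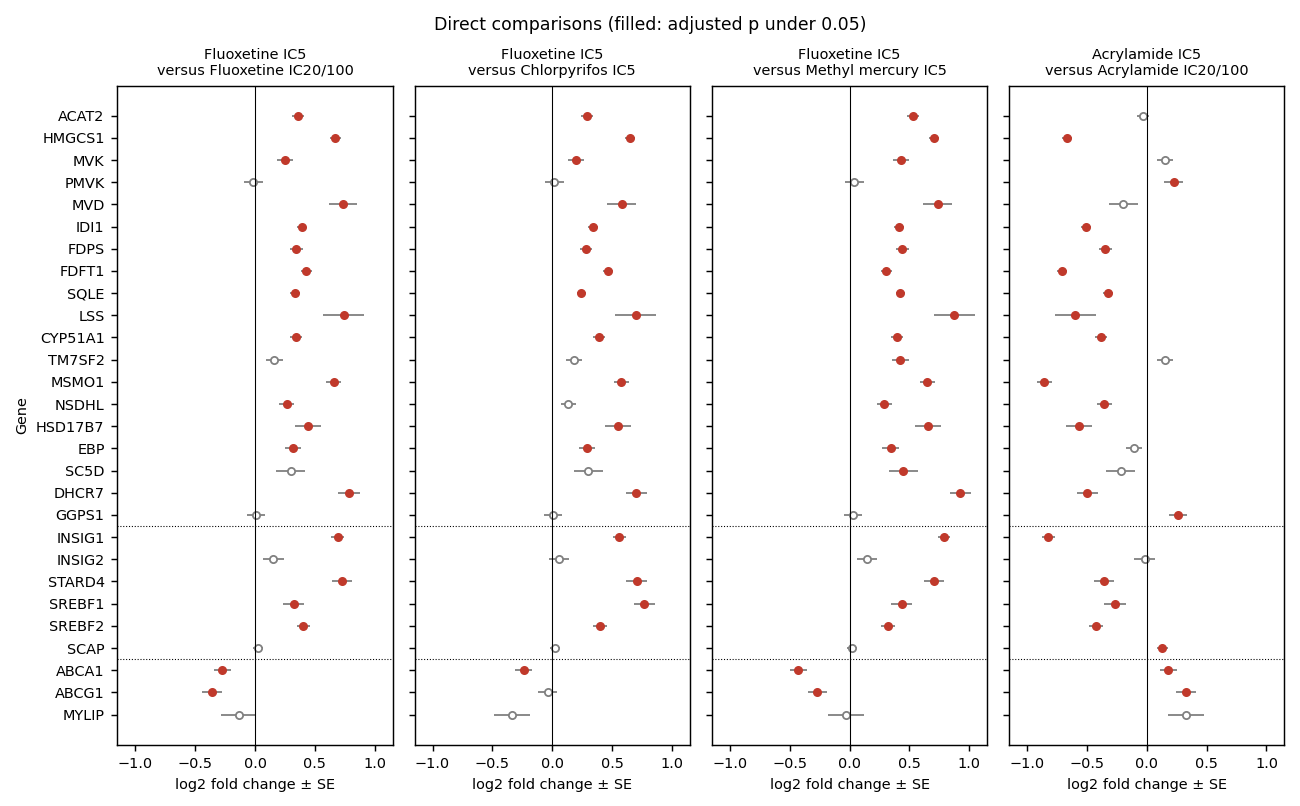
Log2 fold change (horizontal axis, points with ± SE bars) of each member (rows, split by dotted lines into enzymes, SREBP control and LXR targets) in 4 direct comparisons, filled where the adjusted p was under 0.05. Enzymes lie to the right of 0 in the 3 fluoxetine panels, apart from a lowest value of -0.01 against fluoxetine IC20/100. There 15, 14 and 17 of 19 are filled, and 11 of 19 are filled to the left of 0 in the acrylamide panel.

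Acrylamide, an electrophilic monomer and known neurotoxicant, gave at IC5 mostly lower values. Against control, 16 members fell and 6 rose, beside 21.5% of all genes called lower and 20.5% higher. The 16 comprised 12 of 19 enzymes and 4 of 6 control genes, and the 6 were MVK, PMVK, TM7SF2, GGPS1, ABCA1 and ABCG1. The median log2 fold change was -0.28 over the members. Acrylamide IC5 had the lowest day 10 median for 14 members and the highest for 6.

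The deepest fall was that of MSMO1, with 1596 to 1920 (median 1771) normalised reads in acrylamide IC5 cultures and 2537 to 3723 (median 3507) in controls. It fell by 0.94 on the log2 scale (SE 0.06, adjusted p = 2.27e-22), and no library overlapped. FDFT1, the enzyme that commits isoprenyl units to sterols, had 5236 to 5841 (median 5655) in acrylamide IC5 cultures and 8775 to 9978 (median 9145) in controls, a log2 fold change of -0.71 ± 0.04 (adjusted p = 5.68e-24). HMGCS1 had 14120 to 16310 (median 15050) in acrylamide IC5 cultures and 22820 to 25720 in controls (log2 fold change -0.66 ± 0.04, adjusted p = 6.43e-23). These 3 genes, at the start, the branch point and the late part of the pathway, were all below every control library. LSS fell by 0.58 (SE 0.17), IDI1 and CYP51A1, the lanosterol demethylase, by 0.53 each, and DHCR7 by 0.49 on the log2 scale. ACAT2 (0.00), MVD (0.03) and SC5D (-0.26) were not called.

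INSIG1 had 691.9 to 933.1 (median 779.1) normalised reads in acrylamide IC5 cultures and 1208 to 1482 in controls, a fall by 0.75 on the log2 scale (SE 0.05, adjusted p = 2.06e-21). SREBF2 had 8459 to 10320 (median 9027) in acrylamide IC5 cultures and 11680 to 13910 (median 12810) in controls, and it fell by 0.48 (SE 0.06, adjusted p = 1.73e-11). Both genes were below every control. SREBF1 fell by 0.39 (SE 0.09) and STARD4 by 0.47 (SE 0.09), while SCAP (0.10) and INSIG2 (0.03) were not called. ABCA1 had 2357 to 2709 (median 2537) normalised reads in acrylamide IC5 cultures and 1775 to 2314 in controls, so that every exposed library lay above every control (log2 fold change 0.24 ± 0.07, adjusted p = 0.00369). ABCG1 rose by 0.34 ± 0.08, and MYLIP (0.30 ± 0.15) was not called.

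The risers among the enzymes were small and in part fragile. GGPS1 rose by 0.34 ± 0.07, PMVK by 0.22 ± 0.08, TM7SF2, a sterol reductase, by 0.17 ± 0.07 and MVK by 0.16 ± 0.07 on the log2 scale. The calls of MVK (adjusted p = 0.0969 without control replicate 1), TM7SF2 (0.0859 without control replicate 1), PMVK (0.0738 without control replicate 2) and of EBP among the falls (0.0812 without control replicate 5) were lost. MVK was also lost without control replicates 2, 5, 6 or 8, TM7SF2 without 2, 3, 4, 5 or 8, and EBP without 2 or 4. TM7SF2 lies on the same strand as VPS51, which overlaps it and fell by 0.50 on the log2 scale. GGPS1 is overlapped on its strand by TBCE, which was at -0.02 ± 0.21 and not called, and by AL391994.1. The summed mean of these overlapping genes was 742.57 normalised reads over all libraries, against 716.6 for GGPS1. The pseudogene HSD17B7P2 fell by 1.02 beside the fall of HSD17B7 by 0.48.

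Against its own IC20/100, acrylamide IC5 had 15 members lower and 5 higher, beside 21.1% of all genes lower and 20% higher. MSMO1 was again the deepest (1596 to 1920 normalised reads at acrylamide IC5 and 2834 to 3435 at acrylamide IC20/100, log2 fold change -0.86 ± 0.06), followed by INSIG1 (-0.82 ± 0.05). At IC20/100 itself no member was called against control, and of all genes 0.0497% were called higher and 0.00993% lower. At that concentration the members' log2 fold changes ran from -0.15 (CYP51A1) to 0.22 (MVD). By edgeR and DESeq2 the count of members was 0 as well, and 1 member, CYP51A1, had an unadjusted p under 0.05. Set against valproic acid IC5, the other compound given in medium, acrylamide IC5 had 13 members lower and 3 higher (19.9% of all genes lower and 17.7% higher). HMGCS1 differed there by -0.50 ± 0.04 and ABCA1 by 0.63 ± 0.07, both without overlap.

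In the related lists at acrylamide IC5, the fatty acid branch had 5 of 13 genes lower and 2 higher. SCD was the deepest, with a mean of 13340 ± 468.4 normalised reads in acrylamide IC5 cultures and 24120 ± 994.0 in controls (SD, n = 8 each, log2 fold change -0.86, adjusted p = 2.9e-35). LXR receptors, other LXR targets and oxysterol enzymes had 7 of 13 higher and 3 lower, led by NR1H2, which encodes an LXR (1.39), and by CYP27A1 on the lower side (-0.96). Of SREBP processing and sterol-regulated degradation 4 of 11 rose and 1 fell, led by AUP1 (0.36) and MARCHF6 (-0.20), and of the uptake and transport genes 3 of 15 tested rose and 5 fell, led by NPC2 (0.43) and GRAMD1B (-0.61). The non-sterol isoprenoid branch had 2 of 11 higher, led by ICMT (0.34). These counts stand beside about 1 in 5 of all genes called in each direction. The summed progenitor markers were 74390 to 82950 in acrylamide IC5 cultures and 95330 to 102200 in controls. Most of that sum is VIM, with 48600 to 53900 in acrylamide IC5 cultures and 68850 to 75020 in controls. The proliferation marker MKI67 of the same list went the other way, with 4479 to 5461 in acrylamide IC5 cultures and 2924 to 3656 in controls. The neuronal list was 73910 to 78260 in acrylamide IC5 cultures and 78810 to 85460 in controls. What part these have in the sterol results was not tested.

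**Figure D3:**
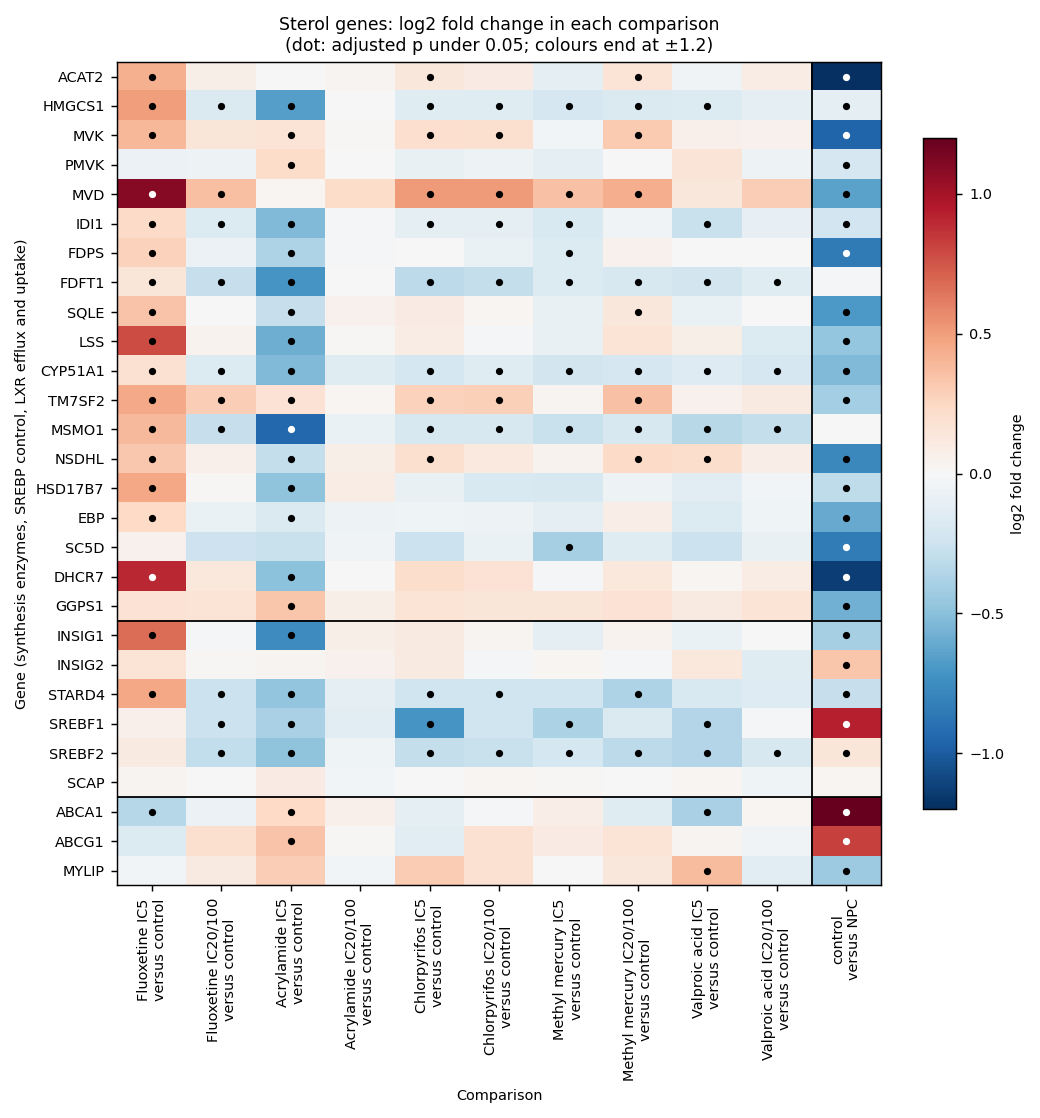
Log2 fold change (colour, ending at ±1.2) of the 28 members (rows, in pathway order within 3 roles split by black lines) in 10 comparisons of an exposure with control and in control versus NPC (columns); a dot marks an adjusted p under 0.05. Fluoxetine IC5 has 16 dotted red enzyme cells, acrylamide IC5 has 12 dotted blue ones and acrylamide IC20/100 has no dot.

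Chlorpyrifos, an organophosphate insecticide, methyl mercury and the low concentration of fluoxetine gave smaller and mixed changes. At chlorpyrifos IC5, 5 members rose and 8 fell (9.92% of all genes higher and 9.75% lower). At chlorpyrifos IC20/100, 3 rose and 7 fell (7.06% and 7.02%). At fluoxetine IC20/100, 2 rose and 8 fell (6.88% and 7.54%). At methyl mercury IC5, 1 rose and 9 fell (4.85% and 6.06%), and at methyl mercury IC20/100, 6 rose and 6 fell (8.21% and 7.6%). The exposures share the 8 controls, so that a control value shifts all of them alike.

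Several members moved in all 5 of these groups, a selection made after their values were seen. MVD rose in all 5, with medians of 1637 and 1700 normalised reads at chlorpyrifos IC5 and IC20/100, 1588 at fluoxetine IC20/100, 1416 and 1541 at methyl mercury IC5 and IC20/100, and 1151 in controls. Its log2 fold changes were 0.36 to 0.51, and the libraries overlapped with the controls in each group. The calls of MVD were lost in fluoxetine IC20/100 (adjusted p = 0.0902 without control replicate 7, and lost also without replicates 3 or 4) and in methyl mercury IC5 (0.113 without control replicate 4, and lost also without replicates 3, 5 or 7). HMGCS1, FDFT1, CYP51A1 and MSMO1 fell in all 5 groups, together with SREBF2. Under at least 1 alternative the call of MSMO1 was lost in each group except fluoxetine IC20/100. That of CYP51A1 was lost except at chlorpyrifos IC5 and methyl mercury IC5. The calls of HMGCS1, FDFT1 and SREBF2 were lost only at methyl mercury IC20/100. The share of all genes that moved in all 5 groups was not counted. SREBF2 had medians of 10650 and 10440 normalised reads at chlorpyrifos IC5 and IC20/100, 10250 at fluoxetine IC20/100, 11050 and 10780 at methyl mercury IC5 and IC20/100, and 12810 in controls. Its falls were 0.21 to 0.32 on the log2 scale. FDFT1 fell by 0.16 to 0.32. TM7SF2 rose by 0.28 to 0.35 in 4 of the 5 groups, and at methyl mercury IC5 it was at 0.03 and not called. STARD4 fell in the same 4 groups, by 0.24 to 0.37.

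SREBF1, whose product drives fatty acid genes more than cholesterol genes, had 712.6 to 1054 (median 809.9) normalised reads at chlorpyrifos IC5 and 1219 to 1508 (median 1423) in controls. All exposed libraries were below the controls, and SREBF1 fell by 0.71 on the log2 scale (SE 0.09, adjusted p = 8.65e-10), the largest change of any member in these 5 groups. Between chlorpyrifos IC5 and chlorpyrifos IC20/100, SREBF1 was the only member called (log2 fold change -0.46 ± 0.09, adjusted p = 0.00782), lower at IC5, where 0.00993% of all genes were lower and 0.0397% higher. Fitted on these 16 libraries alone that call was lost. SREBF1 also fell at methyl mercury IC5 (by 0.38) and fluoxetine IC20/100 (by 0.26), the second call being lost without control replicates 4, 5 or 6 (highest adjusted p = 0.0879). In chlorpyrifos IC5 cultures the fatty acid branch had 4 of 13 genes lower and none higher, led by ME1 (-0.37), and SCD was at -0.21. Of all genes 9.75% were lower there, and the median log2 fold change of the branch was 0.01. Of the same 13 genes, 3 were lower at chlorpyrifos IC20/100, 3 at methyl mercury IC20/100 and 2 at methyl mercury IC5, with none higher. At fluoxetine IC20/100, 3 were lower and 1 was higher. SREBF1 was not called at chlorpyrifos IC20/100 or methyl mercury IC20/100, where its means were 1163 and 1226 normalised reads, against 1397 in controls. What part SREBF1 has in these values was not tested.

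Several calls in these groups hang on single controls. At chlorpyrifos IC5 the calls of ACAT2 (adjusted p = 0.0853 without control replicate 1), MVK (0.0547 without 1), NSDHL (0.0599 without 1), IDI1 (0.0892 without 2) and STARD4 (0.0984 without 4) were lost. ACAT2 was also lost without 2, 3 or 4, IDI1 without 3, 4, 5 or 7, and STARD4 without 1, 2 or 8. At chlorpyrifos IC20/100 it was those of MVK (0.0905 without 1), IDI1 (0.0775 without 3), CYP51A1 (0.134 without 3), MSMO1 (0.0712 without 3) and STARD4 (0.126 without 4). There MVK was also lost without 2, 5 or 8, IDI1 without 2, 4, 5 or 7, CYP51A1 without 1, and STARD4 without 1, 2, 6 or 8. With no filter on low values 5 members were called in place of 10. At fluoxetine IC20/100 it was CYP51A1 (0.0609 without 3) and STARD4 (0.0792 without 4, lost also without 1), and at methyl mercury IC5 FDPS (0.0722 without 4, lost also without 5 or 7) and SC5D (0.0581 without 4). Without the run term 6 members were called at methyl mercury IC5 in place of 10. None of the 265 calls in 20 comparisons changed direction under any of the alternatives.

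At methyl mercury IC20/100 the members called were ACAT2, MVK, MVD, SQLE, TM7SF2 and NSDHL on the higher side and HMGCS1, FDFT1, CYP51A1, MSMO1, STARD4 and SREBF2 on the lower. Without replicate 8, which stood apart, 10 members were called in place of 12, and ACAT2 (log2 fold change 0.17 with it and 0.10 without it, adjusted p = 0.0965 without it) and SQLE (0.13 with it and 0.10 without it, adjusted p = 0.0802) were lost. MSMO1 was lost without control replicate 3 (adjusted p = 0.0611). Replicate 8 had 3426 normalised reads of ACAT2 against 2046 to 2422 in the other 7 libraries, 15100 of HMGCS1 against 21390 to 24160, and 991.6 of ABCA1 against 1922 to 2393. Fitted on the 16 libraries of methyl mercury IC20/100 and control alone, 0 members were called. Methyl mercury IC5 set against methyl mercury IC20/100 had 7 members lower and 1 higher (2.6% of all genes lower and 2.58% higher). ACAT2 had 1740 to 2033 normalised reads at IC5 and 2046 to 3426 at IC20/100, without overlap (log2 fold change -0.27 ± 0.05, adjusted p = 1.01e-04). Without replicate 8 the count was 5, and IDI1, INSIG1 and ABCA1 were lost (adjusted p = 0.0651, 0.0772 and 0.173). In a fit of these 16 libraries alone it was 0.

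The compounds given in DMSO and those given in medium were compared as sets at IC20/100, with 24 libraries against 16. In DMSO, 3 members were higher and 5 lower, beside 8.62% of all genes higher and 9.05% lower. MVK (log2 fold change 0.19 ± 0.04), TM7SF2 (0.24 ± 0.05) and ABCG1 (0.19 ± 0.05) were higher, and HMGCS1 (-0.11 ± 0.03), FDFT1 (-0.18 ± 0.03), STARD4 (-0.15 ± 0.06), SREBF1 (-0.16 ± 0.06) and SREBF2 (-0.17 ± 0.04) were lower. MVD, at 0.18, was not called. The libraries of the sets overlapped for each of these genes, and STARD4 was lost without methyl mercury IC20/100 replicate 8 (adjusted p = 0.0649). Vehicle and compounds cannot be told apart in this comparison.

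Valproic acid, an antiepileptic drug and inhibitor of histone deacetylases, was given in medium. At IC5, 2 members rose and 8 fell, where 14.5% of all genes were called higher and 12.4% lower. SREBF2 had 8974 to 10550 (median 10150) normalised reads in valproic acid IC5 cultures and 11680 to 13910 (median 12810) in controls, without overlap (log2 fold change -0.35 ± 0.06, adjusted p = 2.67e-07). ABCA1 had 1455 to 1749 (median 1589) in valproic acid IC5 cultures and 1775 to 2314 (median 2139) in controls, also without overlap, and it fell by 0.39 (SE 0.07, adjusted p = 6.8e-06). ABCA1 thus had its lowest day 10 median here and its highest in acrylamide IC5. HMGCS1, IDI1, FDFT1, CYP51A1, MSMO1 and SREBF1 fell by 0.15 to 0.35 on the log2 scale, NSDHL rose by 0.21 ± 0.06 and MYLIP by 0.38 ± 0.15. The calls of MYLIP (adjusted p = 0.136 without control replicate 4, lost also without replicates 2, 3 or 8) and CYP51A1 (0.0534 without control replicate 3) were lost. Against valproic acid IC20/100, IC5 had 2 members higher (MYLIP and INSIG2) and 4 lower (IDI1, SREBF1, SREBF2 and ABCA1), beside 9.73% of all genes higher and 7.27% lower. ABCA1 differed by -0.41 ± 0.07 (adjusted p = 4.49e-06) and did not overlap. Without methyl mercury IC20/100 replicate 8, which shares in the estimate of the spread, 9 members were called in place of 6.

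At valproic acid IC20/100, 4 members fell and none rose (1.17% of all genes higher and 1.37% lower). They were FDFT1, CYP51A1, MSMO1 and SREBF2, by 0.15 to 0.28 on the log2 scale, and all overlapped with the controls. The count was 1 without control replicate 3, 2 without any 1 of control replicates 1, 2, 4, 5 or 8, 2 with no filter, and 0 in a fit of these 16 libraries alone or without the run term. The highest adjusted p on leaving out a control was 0.121 for FDFT1 (without 4), 0.106 for SREBF2 (without 1) and 0.0648 for CYP51A1 (without 3).

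The unexposed cultures were compared with the progenitors they came from. In control co-cultures at day 10, 20 members were lower than in NPC at day 0 and 5 were higher, while 36.8% of all genes were lower and 33.9% higher. Of the 19 enzymes 17 were lower and none was higher, with a median log2 fold change of -0.57 against -0.01 over all genes. ACAT2 had 1900 to 2256 (median 2095) normalised reads in controls and 5932 to 6395 (median 6131) in NPC, a log2 fold change of -1.55 ± 0.04 (adjusted p = 1.28e-11). DHCR7 had 899.1 to 1317 (median 1070) in controls and 2081 to 2559 (median 2302) in NPC (log2 fold change -1.13 ± 0.08, adjusted p = 1.4e-07). Neither gene overlapped between the groups. MVK was lower by 0.96, FDPS, which makes farnesyl diphosphate, by 0.85 and SC5D by 0.84 on the log2 scale, whereas HMGCS1 differed by only -0.10 ± 0.03. FDFT1 (-0.02) and MSMO1 (0.00) were not called.

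The control genes split. INSIG1 (log2 fold change -0.40 ± 0.04) and STARD4 (-0.28 ± 0.06) were lower in controls than in NPC. SREBF1 had 1219 to 1508 (median 1423) normalised reads in controls and 622.7 to 841.7 (median 749.5) in NPC, a log2 fold change of 0.93 ± 0.08 (adjusted p = 3.79e-07), and all controls lay above NPC. INSIG2 (0.34 ± 0.07) and SREBF2 (0.14 ± 0.04) were also higher, and SCAP (0.03) was not called. ABCA1 had 1775 to 2314 (median 2139) in controls and 549.8 to 748.2 (median 667.1) in NPC, which is 3.30-fold (log2 fold change 1.72 ± 0.06, adjusted p = 3.53e-10). ABCG1 was higher by 0.82 ± 0.10, likewise without overlap, and MYLIP was lower by 0.44 (SE 0.15). The calls of MYLIP (adjusted p = 0.0691 without control replicate 4) and of HSD17B7 (0.053 without control replicate 5) were lost, and HSD17B7P2 was higher by 0.68 while HSD17B7 was lower by 0.31.

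In the related lists, 6 of 13 fatty acid genes were lower in controls than in NPC and 1 was higher, led by ME1 (-1.65) and LPIN1 (1.00). The counts of all these lists stand beside 36.8% of all genes lower and 33.9% higher, and several are near those shares. Of SREBP processing and degradation genes 8 of 11 were lower, led by RNF145 (-0.62), and 2 higher, led by MARCHF6 (0.58). Of the non-sterol isoprenoid branch 6 of 11 were lower, led by ICMT (-1.61). Uptake and transport genes were divided, with 5 of 16 in each direction, led by LRP1 (1.24) and CAV1 (-3.64), and the LXR and oxysterol list had 3 of 13 higher, led by RXRG (2.69), and 6 lower, led by HSD3B7 (-0.93). The neuronal list summed to 78810 to 85460 in controls and 57380 to 63520 in NPC, the progenitor list to 95330 to 102200 in controls and 103200 to 109400 in NPC, and the mesenchymal list to 1309 to 1721 in controls and 3091 to 4276 in NPC. The astrocyte list summed to 4436 to 5724 in controls and 3827 to 5503 in NPC, so that these ranges overlapped. Members of the progenitor list went in opposite directions. VIM had 68850 to 75020 in controls and 45960 to 48160 in NPC, whereas NES had 14350 to 17270 in controls and 28180 to 30860 in NPC. MKI67 had 2924 to 3656 in controls and 7623 to 9263 in NPC, and FABP7 3226 to 3474 in controls and 17870 to 20970 in NPC. Their part in the result was not tested.

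**Figure D4:**
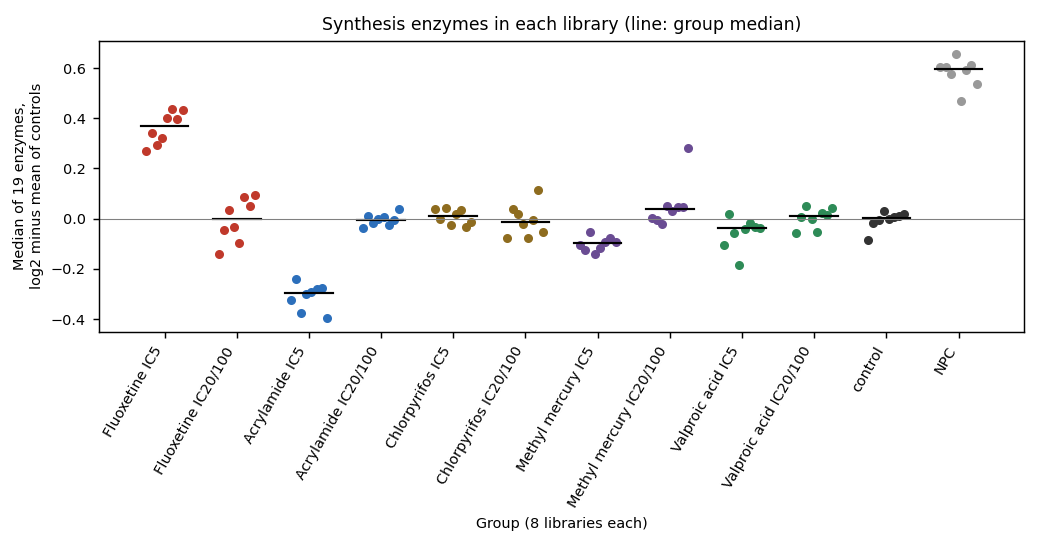
Median over the 19 enzymes of log2(value + 2) minus the mean of the controls (vertical axis) for each library (points, 8 a group) in the 12 groups (horizontal axis), with a line at the group median. Fluoxetine IC5 libraries lie between 0.27 and 0.44, acrylamide IC5 libraries between -0.40 and -0.24, controls between -0.09 and 0.03, and NPC libraries between 0.47 and 0.66.

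Over the day 10 groups the ratio of the highest to the lowest group median was 2.74 for INSIG1, 2.60 for MSMO1, 2.55 for DHCR7 and 2.40 for LSS, and only 1.14 for SCAP. Fluoxetine IC5 had the highest and acrylamide IC5 the lowest median for INSIG1, MSMO1, DHCR7 and LSS, and the order was the reverse for ABCG1 and MYLIP. In each library the median of the 19 enzymes relative to the controls placed every fluoxetine IC5 library above every acrylamide IC5 library and above every control. Methyl mercury IC5 lay at -0.14 to -0.05, against -0.09 to 0.03 in controls, and the other 7 exposures had group medians between -0.04 and 0.04.

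Within groups the median pair of members hardly moved together once group and run were removed, but some pairs did. Over the 88 day 10 libraries the median Spearman correlation was 0.03 over 378 pairs of members and 0.05 over 171 pairs of enzymes. The closest pair was IDI1 and SQLE (rho = 0.63) and the most opposed EBP and ABCA1 (rho = -0.59). Other pairs that moved together were IDI1 with MSMO1 (0.47) and HMGCS1 (0.46), and HMGCS1 with STARD4 (0.47). INSIG1 moved with SQLE (0.44), IDI1 (0.43) and STARD4 (0.41). Pairs that moved apart included ABCA1 with ACAT2 (-0.48) and PMVK (-0.45). ABCA1 had a median rho of -0.22 with the 19 enzymes. These are descriptions over libraries that share an experiment, and they carry no test.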

How the data were processed

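Gene expression was deposited by the authors as a normalised signal: gene counts divided by 1 size factor per library, made with Salmon 1.3.0, DESeq2 1.30.0 and GRCh38, per the submitters' processing notes. Which gene annotation they used is not stated in the labels used here. Whole reads were recovered from the deposited signal (100% of values whole within 0.001 read), giving 9.487 to 29.627 M reads a library. In 6 libraries 1 read was worth close to 1 unit.

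Tests used limma 3.58.1 in R 4.3.3 on log2(value + 2) with a mean-variance trend and terms for group and sequencing run (6 runs), for genes with values of at least 10 in at least 8 libraries. One fit held 16 control and NPC libraries (9 residual degrees of freedom) and one the 88 day 10 libraries (72). P-values were Benjamini-Hochberg adjusted over all genes of a fit, with a threshold of 0.05. The analysis was tested on simulated data. Alternatives were edgeR 4.0.16 and DESeq2 1.42.0 on the recovered reads, pseudocounts of 0.5 and 10, no filter, no run term, TMM scaling, a replicate block, fits of only the groups compared, and leaving out single libraries. All 28 members are named. Of the related lists the text gives counts, and the called gene with the largest change in each direction. The members and lists were chosen with earlier results of these data known. One marker list is not reported here.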

Additional observations from a re-analysis of the deposited data

Results flagged for a closer look

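In each group the highest and the lowest library were compared with the others by their gap relative to the range of the group. Of 336 pairs of a member and a group, 27 had a library far from the rest, in 17 members, where chance gives about 1 in 20.

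Methyl mercury IC20/100 replicate 8 accounts for 11 of these. It was high for ACAT2 (3426 normalised reads), PMVK (859), FDPS (5167), FDFT1 (10168), TM7SF2 (1744), NSDHL (996) and EBP (858), and low for HMGCS1 (15095), STARD4 (602), SREBF2 (6514) and ABCA1 (992). In this library the summed progenitor markers were the highest of its group, whose range was 85280 to 143700. Their part in the sterol values was not tested.

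MSMO1 was low in 5 libraries, all of sequencing run 1. These were fluoxetine IC5 replicate 3 (3292), methyl mercury IC5 replicate 5 (2057), methyl mercury IC20/100 replicate 3 (2061), valproic acid IC20/100 replicate 6 (1714) and NPC replicate 3 (2268).

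The remaining libraries stood apart for 1 or 2 genes each. ACAT2 (2373) and DHCR7 (1567) were high in fluoxetine IC20/100 replicate 8. MVD was high in fluoxetine IC5 replicate 3 (3265). SC5D was high in acrylamide IC5 replicate 5 (2315) and in fluoxetine IC20/100 replicate 6 (2968). SREBF2 was high in fluoxetine IC20/100 replicate 1 (11916) and low in valproic acid IC20/100 replicate 8 (9674). SCAP was low in fluoxetine IC5 replicate 6 (2016) and in valproic acid IC5 replicate 5 (2020). Among controls, CYP51A1 was high in replicate 3 (2743) and STARD4 in replicate 4 (1660).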

How the results depend on the processing

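Of 265 calls of members in 20 comparisons, 194 were kept under every alternative run and 0 changed direction. On leaving out 1 library 35 were lost, and under another setting 67, with some calls in both counts. The library left out was a control or methyl mercury IC20/100 replicate 8, and no other library was left out. In comparisons that hold neither, it enters only through the run terms and the shared spread, so that little could change there. With no filter on low values, 5 members were called at chlorpyrifos IC20/100 and 2 at valproic acid IC20/100. Without the run term, 6 were called at methyl mercury IC5 and 0 at valproic acid IC20/100. In fits of only the groups compared, 0 were called for methyl mercury IC20/100, valproic acid IC20/100, chlorpyrifos IC5 against IC20/100 and methyl mercury IC5 against IC20/100, and DESeq2 called 2 for chlorpyrifos IC5 against IC20/100. Leaving out 1 library gave 1 to 5 members at valproic acid IC20/100 and 5 to 8 for methyl mercury IC5 against IC20/100. The cause of these shifts was not tested.

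Little sign of pairing by replicate number was seen. With run removed, the median correlation of same-numbered libraries with the controls was at most 0.125 (NPC, against 0.082 for other numbers). In some groups same-numbered libraries share a run with the control, so that removing run also removes what they share. The check therefore cannot decide whether the numbers pair the samples. With a replicate block, 24 members were called for control against NPC, where MYLIP was lost (adjusted p = 0.0611), and 19 at fluoxetine IC5. Over 588 results of members the block lost 1 call and added 9. TMM scaling moved the median of all genes by at most 0.03 on the log2 scale. Counting error limits MYLIP, with 13 to 58 reads a library.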

Other observations

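Within groups, some late and isoprenoid enzymes differed by sequencing run. In run 1, the mean of MSMO1 was below the mean of the other runs in 12 of 12 groups, at a median ratio of 0.779, and every run 1 library was below all others in 9 of 12. For IDI1 the mean was below in 12 of 12 groups (median ratio 0.817) and every library in 9, for SQLE in 12 (0.883) and 8, and for SC5D in 11 (0.739) and 8. Run is a term of the fits, and each run held 16 libraries with 1 or 2 of every group.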
